A study of Mus musculus with 2 samples.

Results

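The 38 genes described here are markers of astrocytes, the star-shaped glial cells of the brain, together with a few genes that differ between astrocytes of different regions. They were taken by symbol from the table of gene counts, and all 38 were found among its 31252 rows. The table holds 1 library of ventral midbrain labelled Ctrl and 1 labelled OE, each from mice that were 2 months old and of a strain given as incipient congenic C57BL/6. Mice of both genotypes carry Slc6a3-Cre, a Cre recombinase driven by the dopamine transporter gene and so active in dopaminergic (DA) neurons. OE mice carry CAG-S-COUP-TFII in addition, an allele that makes COUP-TFII, an orphan nuclear receptor, once Cre has acted on it. In the breeding scheme of the methods the parents of the littermates also carried floxed Tfam alleles and, in the mothers, a tdTomato reporter, but the labels of these libraries do not list them. The Cre driver is thus one of DA neurons, and astrocytes are not the cells in which the allele is switched on. The labels do not say whether a library is 1 mouse or a pool.

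Astrocytes take up glutamate and GABA released at synapses and return them to neurons as glutamine, buffer potassium and water through endfeet on blood vessels, and form a network coupled by gap junctions. They also secrete lipoproteins and other proteins. They are not uniform: astrocytes of the telencephalon and of the midbrain express partly different genes, with Mfge8 typical of the former and Agt and Slc6a11 of the latter.

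The library labelled Ctrl held 16984336 counts and the library labelled OE 21326632. Where 2 values of a gene are given, the first is the library labelled Ctrl and the second the library labelled OE. Differences are log2 fold changes, positive where the library labelled OE is higher, after TMM scaling, which sets the libraries to a common scale, and with a pseudocount of 0.5. With 1 library per group there is no replicate check and no test across mice. The 95% intervals cover counting error only and compare these libraries, not the genotypes. Nr2f2, the gene for COUP-TFII, had 637 and 377 counts, so its log2 fold change was -1.07 (interval -1.26 to -0.88). The overexpressed gene thus went against the labels, and each direction below is that of the labels only. The paper measured raised COUP-TFII mRNA in isolated DA neurons, whereas these counts are of the whole ventral midbrain. The reason for the lower value was not tested. In bulk tissue, fewer cells of a type and less RNA per cell cannot be told apart.

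Although the labels give the cell type as DA neurons, the source is the ventral midbrain as a whole, and every astrocyte marker of the list was detected in both libraries, with none at 0. The 38 genes held 1.45% of all counts in the library labelled Ctrl (exact binomial interval 1.444% to 1.455%) and 1.40% in the library labelled OE (1.398% to 1.408%). Single genes ranged from 55 counts for Chrdl1 to 43449 for Cpe by the first library, and from 54 to 49818 by the second. Cpe, Glul, Slc1a2, Ndrg2 and Apoe alone made up 57.3% and 57.5% of the counts of the list. Of the defining markers, Gfap had 3926 and 4816 counts, Aqp4 6623 and 7079, Slc1a3 5403 and 6647, and Aldh1l1 1369 and 1591.

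To compare levels between genes, CPM values (counts relative to the scaled library size) were divided by the length of each gene's exons in kilobases. On this scale Cpe, an enzyme that processes neuropeptides and is also abundant in neurons, was the highest, with 975 and 900 CPM per kb. It was followed by Glul, glutamine synthetase (611 and 628), Apoe, the main apolipoprotein of the brain (398 and 478), and Ndrg2, an intracellular protein abundant in astrocytes (323 and 324). Some transcription factors stood near the other end, with 3.51 and 3.24 CPM per kb for Sox9 and about 1 for Gli1 (0.926 and 1.14) and Gli3 (0.996 and 0.924). The transporter gene Slc7a11 (3.47 and 2.73) lay just below Sox9, while the regulators Id3 (9.19 and 9.76) and Id4 (8.23 and 8.11) stood higher. Chrdl1, a secreted BMP antagonist, was the lowest with 0.477 and 0.377. The order of levels was almost the same in both libraries: 19 of the 38 genes held the same rank, and the largest shift was 4 places (Spearman's rho 0.993 over the 38 genes, which share the libraries and the lengths).

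**Figure D1:**
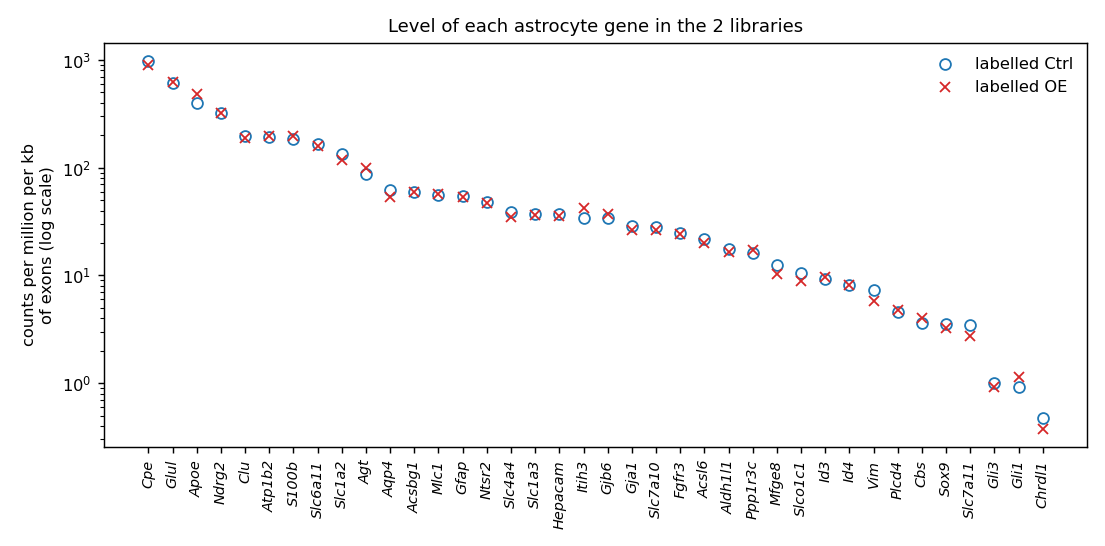
Level of each of the 38 genes (horizontal axis, ordered by the library labelled Ctrl) in CPM per kb of exons, on a logarithmic vertical axis. Circles are the library labelled Ctrl and crosses the library labelled OE. For most genes the marks overlap, from Cpe at 975 and 900 down to Chrdl1 at 0.477 and 0.377.

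Between the libraries the list as a whole hardly differed. Its median log2 fold change was -0.03, with its middle 50% between -0.12 and 0.05, beside a median of 0.005 over all 15246 genes tested, those whose counts averaged 10 or more. By the study's threshold of log2 0.2, the library labelled OE was higher in 3 of the 38 genes and lower in 6, or 7.89% and 15.8% of the list. Over all genes tested the shares were 17.9% higher and 16.6% lower. The counts past log2 0.2 of the other lists below are to be read beside these shares. No member was past 0.35 in either direction. The counting interval lay above 0 for 6 members (15.8%) and below 0 for 12 (31.6%), beside 15.8% and 14.4% of all genes tested. These shares are not on an equal footing, because the median member had a mean of 2927 counts and the median gene tested 415, and deeper counts give narrower intervals. When the 9 members that other brain cells also express strongly were left out, the median of the other 29 was -0.03, with 2 higher and 4 lower. The 9 were Apoe, S100b, Id3, Glul, Clu, Acsl6, Cpe, Slco1c1 and Vim. Mfge8, which vascular cells also make, was kept among the 29.

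**Figure D2:**
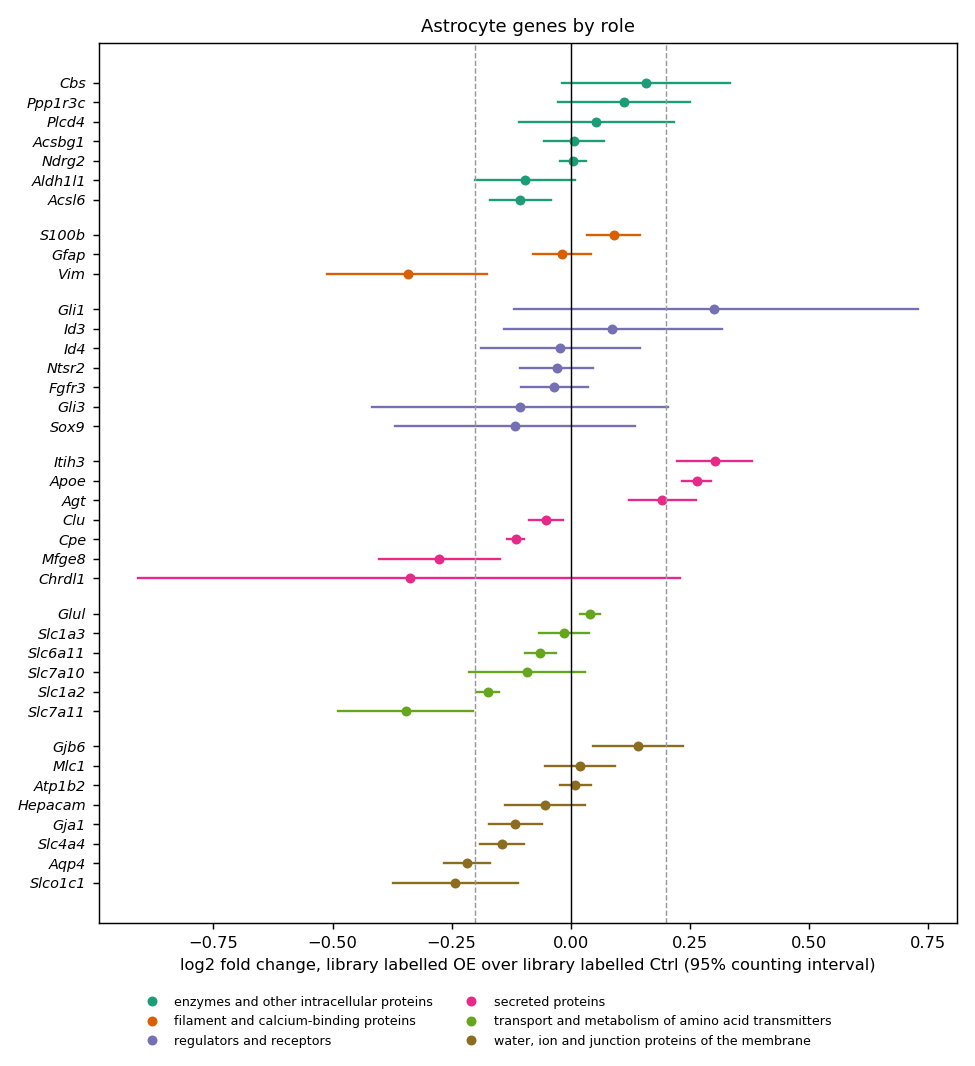
Log2 fold change of each gene, library labelled OE over library labelled Ctrl (horizontal axis), grouped by role. Points are estimates, bars are 95% counting intervals, and dashed lines mark log2 0.2 in either direction. Secreted proteins span the widest range, from Itih3 at 0.30 to Chrdl1 at -0.34, and the widest bars belong to Gli1 and Chrdl1, the members with the fewest counts.

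Of the 6 genes for the uptake and metabolism of amino acid transmitters, 5 had values below 0 and glutamine synthetase was above it. Values below 0 were also those of 23 of the 38 members and 7464 of the 15246 genes tested. Slc1a2 encodes GLT-1, the main glutamate transporter of the adult brain, and had 29850 and 32867 counts (log2 fold change -0.17, interval -0.20 to -0.15). Slc1a3 encodes GLAST, the other astrocytic glutamate transporter, and differed by -0.01 (interval -0.07 to 0.04), so the ratio of Slc1a2 to Slc1a3 was 5.52 and 4.94. The balance of the transporters was thus lower in the library labelled OE (log2 difference -0.16, interval -0.22 to -0.10), a value that needs no scaling between libraries. Slc1a2 has a longer transcript (11.6 kb) than Slc1a3 (4.4 kb), and the part of length in this ratio was not tested. Slc6a11, the GABA transporter GAT-3, had 14226 and 16913 counts (-0.06, interval -0.10 to -0.03). It is typical of astrocytes outside the telencephalon, and per length it was the highest of the solute carriers in the list, with 165 and 158 CPM per kb. Glul had 34645 and 44273 counts, which is 0.04 (interval 0.02 to 0.06).

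The 2 members of the Slc7 family of amino acid exchangers differed in how far they were from 0. Slc7a11, which exchanges cystine for glutamate and so feeds glutathione synthesis, had 824 and 805 counts. Its log2 fold change of -0.35 (interval -0.49 to -0.20) was the lowest of all 38 genes. Slc7a10, a transporter of small neutral amino acids such as serine and glycine, had 1018 and 1187 counts (-0.09, interval -0.21 to 0.03). The ratio of Slc7a10 to Slc7a11 was 1.24 and 1.47, a log2 difference of 0.26 (interval 0.07 to 0.44). Of 16 other genes of glutamate, glutamine and GABA handling, 1 was higher and 3 were lower by more than log2 0.2, with a median of 0.02. The named ones were Slc38a1, a glutamine transporter of neurons (0.24, interval 0.19 to 0.28), Aldh5a1, which acts in GABA breakdown (0.14, interval 0.08 to 0.21), Slc38a3, which exports glutamine from astrocytes (-0.16, interval -0.27 to -0.05), and Slc1a6, the glutamate transporter of Purkinje cells (-0.29, interval -0.54 to -0.04).

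Proteins of the membrane that carry water and ions or join cells had values below 0 for 5 of 8 members, 4 with an interval below 0. For comparison, 23 of the 38 members and 7464 of the 15246 genes tested were below 0. Aqp4, the water channel of the endfeet, had 6623 and 7079 counts (log2 fold change -0.22, interval -0.27 to -0.17). Slc4a4, a sodium bicarbonate cotransporter, had 7182 and 8077 counts (-0.14, interval -0.19 to -0.10). Slco1c1, a thyroid hormone transporter that brain endothelium also expresses, had 935 and 982 (-0.24, interval -0.37 to -0.11). By contrast Mlc1 (0.02, interval -0.05 to 0.09), Hepacam (-0.05, interval -0.14 to 0.03) and Atp1b2 (0.009, interval -0.02 to 0.04, with a sign that depended on the scaling), an adhesion partner pair of the endfoot and a sodium pump subunit, had intervals that included 0. The ratio of Hepacam to Mlc1 was 0.784 and 0.745, with an interval of the log2 difference from -0.18 to 0.04.

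The gap junction genes split. Gja1, which encodes connexin 43, had 5000 and 5731 counts (-0.12, interval -0.17 to -0.06). Gjb6, which encodes connexin 30 and appears in mature astrocytes, had 1551 and 2125 (0.14, interval 0.05 to 0.24). The Gja1 to Gjb6 ratio was therefore 3.22 and 2.70, a log2 difference of -0.26 (interval -0.37 to -0.15). In the dystroglycan complex that anchors endfeet to the vessel wall, 1 of 12 genes (8.33%) was higher and 5 (41.7%) were lower by more than log2 0.2, and the median was -0.13. Over all genes tested these shares were 17.9% and 16.6%. Dtnb, a dystrobrevin, was at 0.02 (interval -0.16 to 0.21). The laminins Lama2 (-0.30, interval -0.50 to -0.10) and Lama1 (-0.55, interval -0.93 to -0.17) were the lowest, and both are also made by cells of the vessel wall and meninges.

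Of the filament and calcium-binding proteins, Gfap, the intermediate filament that defines fibrous and reactive astrocytes, was level at -0.02 (interval -0.08 to 0.04). Vim, the intermediate filament vimentin, which astrocytes share with endothelium and ependyma, had 590 and 578 counts (-0.34, interval -0.51 to -0.17). S100b, which oligodendrocytes also express in the midbrain, had 4655 and 6157 (0.09, interval 0.04 to 0.15). Relative to Gfap, both Vim and Aqp4 were thus lower in the library labelled OE: the ratio of Gfap to Vim was 6.65 and 8.33 (log2 difference 0.32, interval 0.15 to 0.50), and that of Gfap to Aqp4 0.593 and 0.680 (0.20, interval 0.12 to 0.28). Among 27 tested genes of reactive astrocytes, 6 (22.2%) were higher and 11 (40.7%) lower by more than log2 0.2, with a median of -0.09. The shares over all genes tested were 17.9% and 16.6%. The median gene of this list had a mean of only 107.5 counts, beside 415 over all genes tested. Of its 6 higher genes, 5 had an interval above 0, and of its 11 lower genes, 6 had an interval below 0. S100a10 (144 and 333 counts, 0.89, interval 0.61 to 1.19) and the hyaluronan receptor Cd44 (65 and 150 counts, 0.89, interval 0.46 to 1.34) were the highest of those with a mean of at least 100 counts. The cytokine receptor Osmr (122 and 96 counts, -0.66, interval -1.06 to -0.26) and the matrix gene Fbln5 (-0.52, interval -0.87 to -0.17) were the lowest. Many genes of this reactive list are also expressed by neurons, vessels or immune cells.

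None of the 7 regulators and receptors was separated from 0 by its counting interval. Ntsr2, a neurotensin receptor of astrocytes, had 2538 and 3090 counts (-0.03, interval -0.11 to 0.05), and the growth factor receptor Fgfr3 had 3009 and 3650 (-0.03, interval -0.10 to 0.04). Sox9, the transcription factor that starts gliogenesis, had 248 and 284 (-0.12, interval -0.37 to 0.13). The BMP targets Id3 (281 and 371 counts, 0.09) and Id4 (541 and 662 counts, -0.02) also had intervals that included 0. At these counts, differences of this size were not detectable. In the wider BMP pathway, 1 of 20 genes (5%) was higher and 6 (30%) were lower by more than log2 0.2, with a median of -0.11. Over all genes tested these shares were 17.9% and 16.6%, and 4 of the 6 had an interval below 0. Among them Smad9 was at 0.22 (interval 0.06 to 0.37), Smad7 at 0.16 (interval -0.04 to 0.35), Smad1 at -0.36 (interval -0.55 to -0.17) and the ligand Bmp7 at -0.56 (interval -0.92 to -0.20).

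Gli1 and Gli3 are transcription factors of the hedgehog pathway, Gli1 an activator whose own transcription reports hedgehog signalling and Gli3 mainly a repressor. Gli1 had 79 and 121 counts (log2 fold change 0.30, interval -0.12 to 0.73). Gli3 had 163 and 188 (-0.11, interval -0.42 to 0.20). Gli1 was thus among the 3 members past log2 0.2 on the higher side, but its difference was not detectable at this depth, nor was that of the Gli1 to Gli3 ratio (0.485 and 0.644, log2 difference 0.41, interval -0.10 to 0.92). Of 14 other hedgehog genes, 2 were higher and 2 lower, with a median of -0.04. Gli2, another factor of the family, had 90 and 163 counts (0.54, interval 0.16 to 0.93), Boc, a co-receptor, was at 0.11 (interval -0.19 to 0.42), Sufu, a negative regulator, at -0.15 (interval -0.40 to 0.10), and Hhip, a hedgehog-binding target gene, had 515 and 506 counts (-0.34, interval -0.52 to -0.16).

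None of the 7 enzymes and other intracellular proteins was past log2 0.2. Ndrg2 had 18709 and 23326 counts (log2 fold change 0.005, interval -0.02 to 0.03), and Acsbg1, an acyl-CoA synthetase, had 3628 and 4527 (0.006, interval -0.06 to 0.07). Their signs depended on the scaling. Acsl6, an acyl-CoA synthetase that neurons also use, was the one with an interval below 0 (-0.11, interval -0.17 to -0.04), and the ratio of Acsl6 to Acsbg1 was 1.01 and 0.938 (log2 difference -0.11, interval -0.20 to -0.02). Aldh1l1, the folate enzyme used as a pan-astrocyte marker, was at -0.10 (interval -0.20 to 0.009). Cbs, which makes cystathionine, was the highest of the group with 458 and 635 counts (0.16, interval -0.02 to 0.33), followed by the glycogen regulator Ppp1r3c (0.11, interval -0.03 to 0.25) and the phospholipase Plcd4 (0.05, interval -0.11 to 0.22).

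The secreted proteins spanned a wider range of log2 fold changes, from -0.34 to 0.30, than any other role group. Itih3, which binds hyaluronan in the extracellular matrix, had 2139 and 3276 counts (log2 fold change 0.30, interval 0.22 to 0.38). Apoe had 14518 and 21672 counts (0.26, interval 0.23 to 0.30), and Agt, the precursor of the angiotensins, had 2830 and 4018 (0.19, interval 0.12 to 0.26). Itih3 and Apoe were the only members past log2 0.2 on the higher side whose interval lay above 0. Apoe is among the members that other brain cells also express strongly, and the part of those cells in its difference was not tested. On the other side, Mfge8, a bridge protein for the uptake of dying cells that vascular cells also make, had 992 and 1018 counts (-0.28, interval -0.40 to -0.15). Chrdl1, with 55 and 54 counts, was at -0.34, but its interval from -0.91 to 0.23 included 0. Clu, an apolipoprotein also made by neurons and ependyma (-0.05, interval -0.09 to -0.02), and Cpe (-0.12, interval -0.13 to -0.10) had intervals just below 0. Cpe was the single member whose counts were not whole numbers, as RSEM gives where it shares reads between genes.

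These opposite directions showed in ratios that are free of the scaling but not of transcript length, which is described further below. In every pair compared here and above, the gene with the shorter longest transcript was the relatively higher one by its estimate in the library labelled OE. The part of length in the ratios was not tested. The ratio of Apoe to Clu was 1.26 and 1.57, a log2 difference of 0.32 (interval 0.27 to 0.36). The ratio of Agt, typical of astrocytes outside the telencephalon, to Mfge8, typical of the telencephalon, was 2.85 and 3.95, and its log2 difference of 0.47 (interval 0.32 to 0.61) was the largest of the 12 pairs compared. Because vascular cells also make Mfge8, this ratio does not compare regional astrocytes alone, and the part of vascular cells in it was not tested. The other regional marker, Slc6a11, was itself lower in the library labelled OE (-0.06, interval -0.10 to -0.03), unlike Agt. Its ratio to Slc1a2, which was lower still (-0.17), was 0.477 and 0.515 (0.11, interval 0.07 to 0.15). The intervals of 3 of the 12 pairs included 0. The pairs were picked by hand, mostly among genes with many counts and so with narrow intervals, and no share over other pairs of genes was computed, so nothing is read from their number. Of 9 other tested genes of the renin-angiotensin pathway, 1 was higher and 4 lower by more than log2 0.2 (median -0.06), and the 4 lower ones averaged under 100 counts. Those with a mean of at least 100 counts lay between Agtr2, an angiotensin receptor (0.21, interval -0.16 to 0.58), and Lnpep, a peptidase (-0.06, interval -0.43 to 0.31), with Atp6ap2, the prorenin receptor, at 0.14 (interval 0.09 to 0.20) and Ace, the converting enzyme, at 0.14 (interval -0.01 to 0.30).

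**Figure D3:**
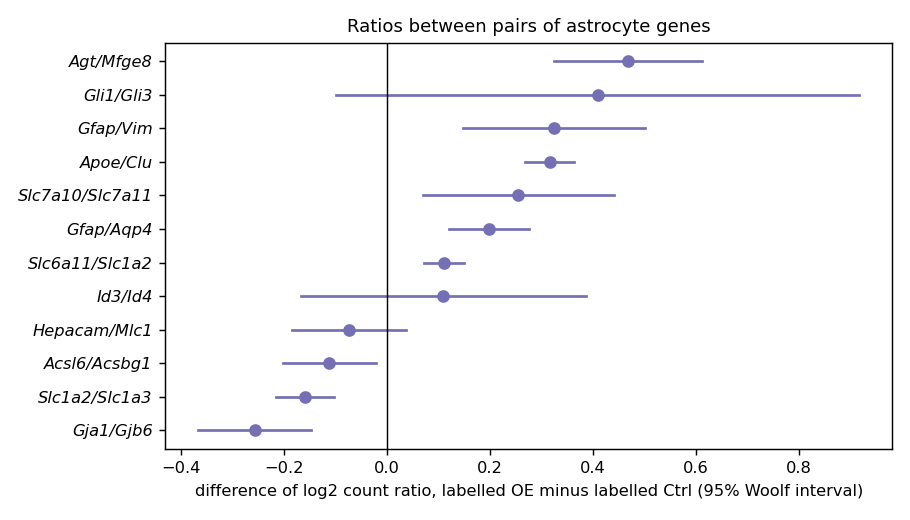
Difference between the libraries in the log2 ratio of 2 members' counts, labelled OE minus labelled Ctrl (horizontal axis), for the 12 pairs named on the vertical axis. Points are estimates and bars 95% Woolf intervals of counting error. Agt to Mfge8 is the highest at 0.47 and Gja1 to Gjb6 the lowest at -0.26, and the bars of Gli1 to Gli3, Id3 to Id4 and Hepacam to Mlc1 cross 0.

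The promoters of members from both ends of the range, and of Gfap as the defining marker, show what the starts of these genes look like. Each run covers 250 bases before and 50 bases after a RefSeq start site in GRCm38.p6, 5′ to 3′ on the gene's strand. Capitals mark TATAAA, the core of a TATA box, and AGGTCA, the half-site that nuclear receptors of the COUP-TF type bind in pairs, on either strand. They are Itih3 (chr14:30923538-30923837, minus strand) and Agt (chr8:124569657-124569956, minus strand), both higher in the library labelled OE, Gfap (chr11:102897151-102897450, minus strand), and Vim (chr2:13574061-13574360, plus strand) and Slc7a11 (chr3:50443564-50443863, minus strand), both lower.
Itih3: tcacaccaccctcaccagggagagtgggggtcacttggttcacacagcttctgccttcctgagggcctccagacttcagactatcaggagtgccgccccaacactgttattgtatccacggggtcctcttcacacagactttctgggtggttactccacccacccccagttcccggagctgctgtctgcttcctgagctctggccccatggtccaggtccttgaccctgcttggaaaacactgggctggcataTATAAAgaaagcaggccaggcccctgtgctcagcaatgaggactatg
Agt: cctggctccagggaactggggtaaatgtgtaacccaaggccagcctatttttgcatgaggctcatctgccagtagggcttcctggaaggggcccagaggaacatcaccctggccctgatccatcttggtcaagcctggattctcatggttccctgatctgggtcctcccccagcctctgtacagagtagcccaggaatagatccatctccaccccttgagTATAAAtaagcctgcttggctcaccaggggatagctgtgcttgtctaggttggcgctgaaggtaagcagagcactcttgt
Gfap: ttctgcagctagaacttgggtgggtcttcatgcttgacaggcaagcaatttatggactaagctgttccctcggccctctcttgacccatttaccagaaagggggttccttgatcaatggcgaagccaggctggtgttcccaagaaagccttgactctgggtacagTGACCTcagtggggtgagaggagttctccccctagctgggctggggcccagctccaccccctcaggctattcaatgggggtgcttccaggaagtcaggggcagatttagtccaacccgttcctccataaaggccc
Vim: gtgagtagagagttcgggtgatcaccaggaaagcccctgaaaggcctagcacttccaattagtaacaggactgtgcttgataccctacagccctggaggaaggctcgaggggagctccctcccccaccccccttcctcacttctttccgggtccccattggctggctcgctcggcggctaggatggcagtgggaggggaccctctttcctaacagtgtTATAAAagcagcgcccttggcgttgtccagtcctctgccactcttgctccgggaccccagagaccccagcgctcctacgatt
Slc7a11: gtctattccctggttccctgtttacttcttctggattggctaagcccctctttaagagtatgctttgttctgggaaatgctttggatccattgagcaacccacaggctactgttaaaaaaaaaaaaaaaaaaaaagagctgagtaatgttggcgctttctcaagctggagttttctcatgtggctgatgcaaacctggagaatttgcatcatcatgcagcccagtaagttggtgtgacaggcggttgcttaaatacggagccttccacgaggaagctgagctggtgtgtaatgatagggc

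Agt and Vim have TATAAA where a TATA box usually stands, 30 and 32 bases before the start, while in Itih3 it begins at base 4 after the annotated start. Gfap holds 1 half-site on the opposite strand, from 85 to 80 bases before its start. Slc7a11 holds neither motif. The RefSeq table matched 31 of the 38 genes with 40 promoters, and Aqp4, Atp1b2, Chrdl1, Clu, Cpe, Gli1 and Sox9 were not matched. AGGTCA, on either strand, was in 8 of the 40 promoters, or 20%, beside 16.3% of all 32851 promoters of the same length. The direct repeat AGGTCANAGGTCA, which contains the half-site, was in 0 of the 40 and in 0.0396% of all promoters. TATAAA was in 7, or 17.5%, beside 13.6% of all. TTCCNGGAA, a motif of STAT factors, was in Gfap and Agt, or 5%, beside 1.15% of all. In Gfap the match lies across the annotated start, from base -2 to base 7. AP-1 (TGACTCA) was in 5% of the 40 and 5.20% of all, the antioxidant response motif (TGACNNNGC, which can overlap the former) in 12.5% and 12.4%, the E-box CACGTG in 10% and 7.15%, and the glucocorticoid half-site AGAACA in 12.5% and 19.0%. The GLI motif TGGGTGGTC, the NFI motif TGGCNNNNNGCCA and the CRE TGACGTCA were in 0 of the 40, and in 0.253%, 0.807% and 1.79% of all. These shares of member promoters rest on 0 to 8 promoters each. The 8 genes with a half-site were Acsl6, Aldh1l1, Gfap, Glul, Ndrg2, Slc1a2, Slc4a4 and Slc6a11. A match is a string of letters in this window and not a site of binding.

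Transcript length and base content went with the differences among the members. The 19 members with the longest annotated transcript under 3.32 kb had a median log2 fold change of 0.006, and the 19 longer ones a median of -0.10. Over 13874 of the tested genes, 91.0% of them, the medians on the same sides of that length were 0.04 and -0.02. Spearman's rho between log2 fold change and length was -0.41 over the 38 members and -0.17 over the 13874 genes, and with GC content 0.47 and 0.10. Apoe at 1.41 kb and Agt at 1.89 kb were short and higher, and Slc1a2 at 11.6 kb, Slc7a11 at 9.22 kb and Slc4a4 at 7.93 kb were long and lower. Vim at 2.93 kb and Mfge8 at 2.33 kb were short and lower, and Gli1 at 4.06 kb (0.30) and Cbs at 6.23 kb (0.16), whose intervals included 0, were long and had values above 0. The part of length and base content in the differences between members, and in the ratios of pairs of members, was not tested.

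**Figure D4:**
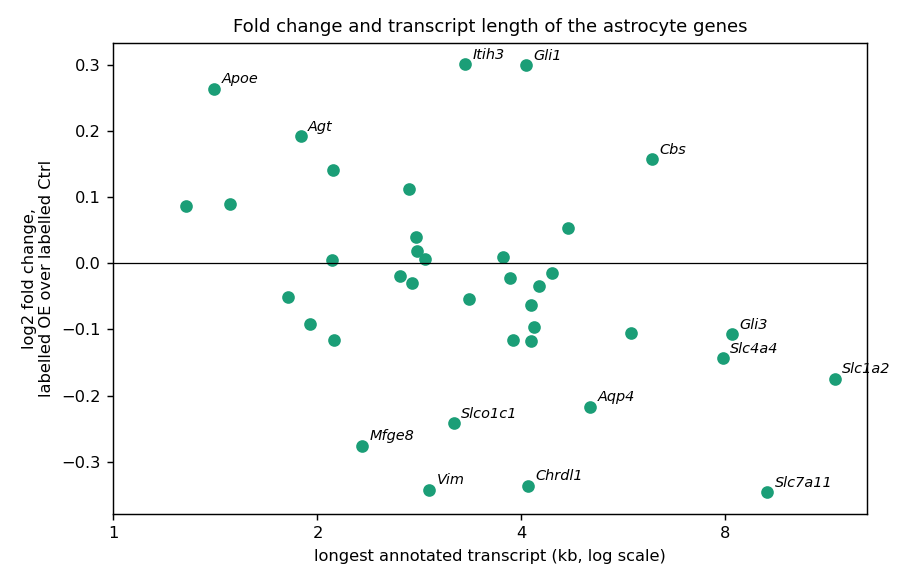
Log2 fold change, library labelled OE over library labelled Ctrl (vertical axis), against the length of the longest annotated transcript in kb (horizontal axis, log scale) for the 38 genes, with the outlying genes named. Short transcripts such as Apoe (0.26) sit higher and long ones such as Slc7a11 (-0.35) and Slc1a2 (-0.17) lower, with Mfge8 (-0.28) and Vim (-0.34) as short genes on the lower side and Gli1 (0.30) and Cbs (0.16) as long genes on the higher side.

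A wider list of 50 other astrocyte genes had a median of -0.005, close to that of the 38. By log2 0.2, 9 were higher and 9 were lower. The metallothioneins Mt2 (1171 and 2624 counts, 0.85, interval 0.75 to 0.95) and Mt1 (1699 and 3292 counts, 0.64, interval 0.56 to 0.73), which bind zinc and copper and are not limited to astrocytes, were the highest. The glutamate receptor Grm3 (785 and 743 counts, -0.39, interval -0.54 to -0.25) and the adhesion molecule Vcam1 (693 and 601 counts, -0.52, interval -0.68 to -0.36), which endothelium also makes, were the lowest. The middle 50% of the list lay between -0.16 and 0.09.

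Several lists of markers of other cells had medians further from 0 than the astrocyte genes. All 14 markers of DA neurons were above log2 0.2 on the side of the library labelled OE, their median was 1.26, and their summed level was 1510 and 3576 CPM. Of 13 markers of the thalamus, which borders the midbrain, 12 were lower by more than log2 0.2, with a median of -1.60 and summed levels of 1299 and 829 CPM. All 12 oligodendrocyte markers were below 0 (median -0.29, summed 21197 and 17736 CPM). So were 11 of 12 microglial ones (median -0.13, 386 and 318 CPM) and 9 of 10 endothelial and mural ones (median -0.23, 491 and 449 CPM). Over all genes tested, 7464 of 15246 were below 0. The counting interval lay below 0 for all 12 oligodendrocyte markers but for only 4 of the 12 microglial ones. Of the 10 endothelial and mural ones, 7 had an interval below 0 and 1 above 0. Oligodendrocyte precursor markers had a median of -0.09 (444 and 401 CPM) and pan-neuronal ones a median of 0.12 (6858 and 7604 CPM). The sum of the 38 astrocyte genes was 14422 and 14100 CPM. The 9 members shared with these other cells had a median of -0.05 and summed to 6693 and 6689 CPM. The part of these other cells, and of the region dissected, in the differences of single astrocyte genes was not tested, and with 1 library a group, genotype and dissected region cannot be told apart.

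**Figure D5:**
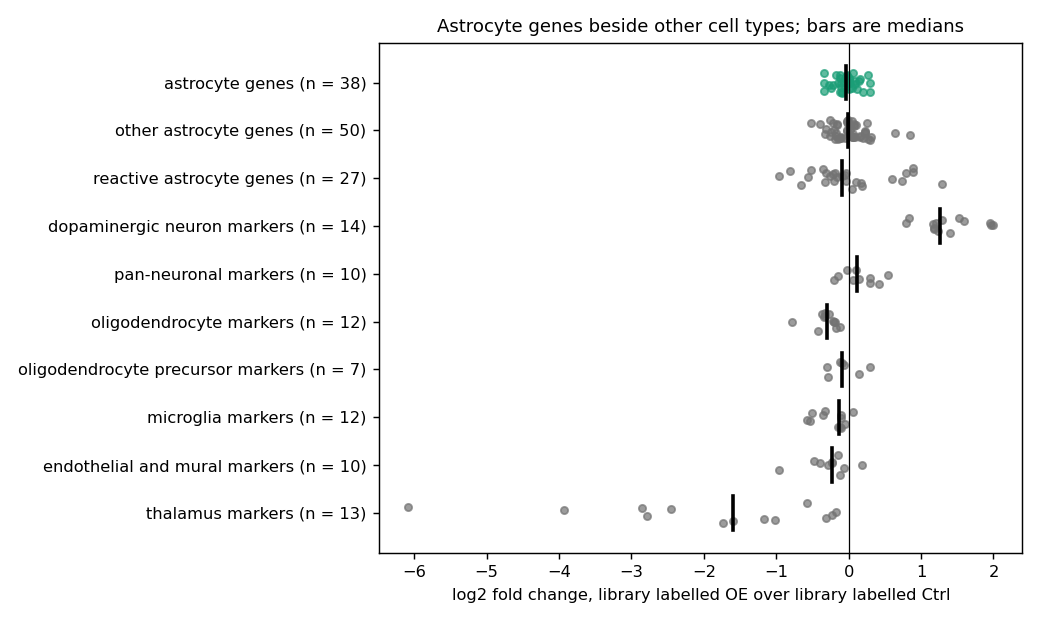
Log2 fold change, library labelled OE over library labelled Ctrl (horizontal axis), of the genes of 10 marker lists (vertical axis, n is the number of genes tested). Each point is a gene and each bar the median of its list. The astrocyte genes cluster around their median of -0.03, while DA neuron markers center on 1.26 and thalamus markers on -1.60.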

How the data were processed

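RNA of the ventral midbrain was made into TruSeq stranded mRNA libraries, read from both ends over 50 bp and analysed by a sequencing company. The authors deposited RSEM expected counts per gene, unscaled, for 31252 rows. The submitters' processing notes name mm10, the same assembly as GRCm38. The aligner, the RSEM version and the annotation are not given in the sources used here. Each column was matched to its sample by the number in its name (1 library per group).

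From these counts, TMM factors were computed with edgeR 4.0.16 (R 4.3.3), and log2 fold changes with a pseudocount of 0.5 for 15246 genes (those averaging 10 counts or more). Single-gene intervals are 95% Clopper-Pearson intervals on the split of the rounded counts (scipy 1.17.1), and ratios of genes have 95% Woolf intervals. Both cover counting error only. With 1 library per group no p-value was computed. Lengths and exons came from GENCODE M21 (matched by symbol) and promoters from RefSeq (GRCm38.p6). The search for 11 motifs covered both strands. Motifs, promoters, length and GC content were examined after the fold changes were seen. Genes outside the 38 were named by rule: Nr2f2, and the 2 highest and 2 lowest of each other list with a mean of at least 100 counts, except that lists of other cell types are given by counts and sums only. For the endfoot list, 1 gene that the rule names is not reported here. Members and lists were chosen with earlier results of these data known. Lists of ependymal and choroid plexus markers had 3 and 4 tested genes, with medians of 0.06 and -0.53. Ren1 and Cfap126 were listed but not found by symbol. 2 symbols each name more than 1 row, and those rows were kept apart. The interval code was checked on simulated data. The alternatives were other scalings (total counts, upper quartile, DESeq2 1.42.0 size factors), a pseudocount of 5, other count minimums and other thresholds.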

Additional observations from a re-analysis of the deposited data

How the results depend on the processing

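No paired analysis was possible because there is only 1 library in either group. The median of the 38 genes stayed between -0.05 and -0.02 under total counts, upper quartile and DESeq2 scaling, a pseudocount of 5, count minimums of 100 or none, and without the 9 genes shared with other cells. Under all but 1 of these settings and with the interval rule, 2 to 3 genes were higher and 4 to 6 lower by log2 0.2. The exception was the upper quartile, with 4 higher because Agt reached 0.21. Past log2 0.5, 0 were higher and 0 lower, because the member furthest from 0 was Slc7a11 at -0.35. Nr2f2 stayed between -1.08 and -1.06. Across the scalings and the pseudocount, 3 genes, Ndrg2, Atp1b2 and Acsbg1, changed sign, all within 0.03 of 0. The median of all genes lay between -0.01 and 0.02 under the 4 scalings. Depth limits Gli1, Gli3, Sox9 and Chrdl1 most.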
